A study of Mus musculus with 12 samples.

Results

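The transcriptional response to MS-275 was compared directly with the response to CXD101 in polymorphonuclear myeloid-derived suppressor cells (PMN-MDSCs) sorted from mouse liver tumors. The comparison used 4 of the 12 libraries of the series, 2 for each inhibitor. Of 24346 gene symbols, 10981 (45.1%) had an FPKM of at least 1 in 2 or more of those 4 libraries and were tested on the log2(FPKM + 1) scale. FPKM is a read count scaled for transcript length and for the size of the library, so that levels of different genes can be compared. Another 4382 symbols were above 0 in at least 1 of the 4 libraries and did not reach that level.

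The cells came from wild-type female C57BL/6J mice of 6 to 8 weeks of age with orthotopic tumors of Hepa 1-6, a mouse hepatoma line, in the liver. Vehicle, MS-275 or CXD101 was injected into the peritoneum daily for 10 days from day 10 after inoculation, both inhibitors at 5 mg/kg, and tumors were collected on day 21. PMN-MDSCs were sorted as CD11b+ Ly-6C int Ly-6G+ cells and monocytic MDSCs (M-MDSCs) were sorted beside them, with 2 libraries for each subset and treatment. The study describes the sequencing of M-MDSCs only, and the PMN-MDSC libraries were taken to follow the same treatment, sorting and collection. The labels do not say whether the 2 libraries of a group came from separate animals, so the p-values measure only the spread between these libraries. The model is a transplanted tumor line in young mice, and the whole mouse was exposed to each compound, not the sorted cells alone.

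PMN-MDSCs are neutrophil-lineage cells that build up in tumors and restrain T cells, with stores of granule proteins, chemoattractants and, in many tumors, arginase. Histone deacetylases (HDACs) remove acetyl groups from histone tails, and blocking them lets acetylation accumulate and alters transcription in both directions. MS-275 (entinostat) is a benzamide, and the study treats both MS-275 and CXD101 as inhibitors of the class I enzymes HDAC1 to HDAC3.

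The 2 inhibitors gave similar transcriptomes, with a small set of genes that separated them. A gene was called when the Benjamini-Hochberg adjusted p in limma was under 0.05 and the fold change was above 1.5. By that rule 53 genes were higher under MS-275 (0.483% of those tested) and 38 were higher under CXD101 (0.346%), or 91 in all (0.829%). The differences went beyond 2-fold for 24 and 17 of them. Leaving out any 1 of the 4 inhibitor libraries (MS-275 replicate 1 or 2, CXD101 replicate 1 or 2) left 3 to 13 higher and 4 to 13 lower genes, and of 34 called genes that the naming rule selected only Mrc1 and Serpinb2 kept their calls in every setting tried. Against vehicle, the same model called 28.2% of these genes under MS-275, with 1630 higher (14.8%) and 1462 lower (13.3%). Under CXD101 it called 20.9%, with 1328 higher (12.1%) and 965 lower (8.79%). The 3 comparisons share libraries, so their counts are given side by side and were not tested against each other.

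The median log2 difference between MS-275 and CXD101 over all tested genes was -0.01, and 90% of genes lay between -0.35 and 0.34 (from the 5th to the 95th percentile). Libraries of different inhibitors differed by a median of 0.13 to 0.15 per gene on the log2 scale. The 2 MS-275 libraries differed by 0.11 and the 2 CXD101 libraries by 0.10. Each inhibitor library differed from each vehicle library by 0.30 to 0.38. The distance between inhibitors was thus closer to that between replicates than to the distance from vehicle. For 8836 genes (80.5%) the 95% interval of the difference lay wholly within the 1.5-fold limit in both directions. By the adjusted p alone, 139 genes passed (1.27%), of which 77 were higher (0.701%) and 62 lower (0.565%) under MS-275. A further 205 genes passed the fold limit without the adjusted p.

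The 4 inhibitor libraries were alike in the features that could be read from the files, and the vehicle libraries stood apart from them. The FPKM values summed to 836748 to 860841 in the 4 inhibitor libraries and to 656932 and 674361 under vehicle. The alarmins S100a8 and S100a9 alone took 27.3% to 30.9% of the FPKM sum under the inhibitors and 10.2% and 13.7% under vehicle. Read totals are not in the files. The steps between low FPKM values correspond to a depth (in units of 1e+06 reads) of about 7.06 and 7.31 under MS-275, 7.72 and 7.11 under CXD101, and 8.12 and 7.83 under vehicle. At such depth a single read in a 1-kb transcript is worth 0.13 to 0.14 FPKM in the inhibitor libraries, so values near that level rest on very few reads.

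**Figure D1:**
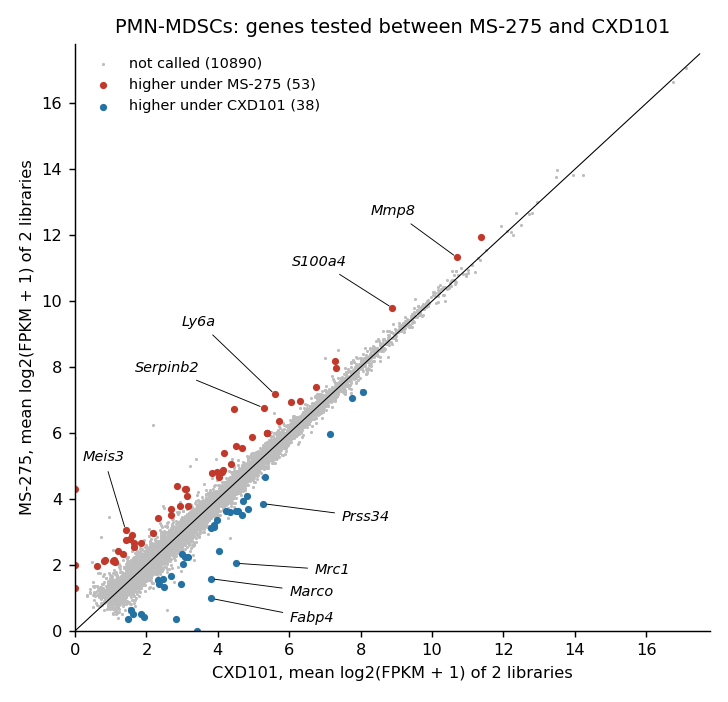
Each point is 1 of the 10981 genes tested, at its mean log2(FPKM + 1) over the 2 CXD101 libraries (x axis) and over the 2 MS-275 libraries (y axis); the line marks equal values. Points lie close to the line over the whole range, with 53 genes above it (red) and 38 below it (blue) that were called. The called genes at 0 on an axis carry small nucleolar RNA, Gm or Rik symbols.

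Meis3, Ly6a and Thy1 had the largest called differences toward MS-275 among the named genes. Ly6a, which encodes the stem cell antigen Sca-1, had FPKM values of 140 and 146 under MS-275, 42.4 and 52.7 under CXD101, and 11.4 and 5.67 under vehicle. Both MS-275 libraries stood above both CXD101 libraries, which in turn stood above vehicle. The difference was 1.58 ± 0.25 (log2, SE; limma with Benjamini-Hochberg adjusted p = 0.031), a 3.02-fold ratio of mean FPKM. Thy1, a GPI-anchored surface protein of T cells and progenitors, followed the same order, with 21.2 and 19.1 under MS-275 against 7.15 and 5.36 under CXD101 and 3.01 and 1.21 under vehicle (difference 1.55 ± 0.26, limma adjusted p = 0.0403). Meis3, a homeobox transcription factor, had 7.53 and 7.11 FPKM under MS-275, 1.56 and 1.77 under CXD101 and 0.964 and 0.762 under vehicle. Its CXD101 values lay near vehicle, and its difference of 1.64 ± 0.14 was the largest on the log2 scale among the higher genes named here (limma adjusted p = 0.00495). Cd34, a sialomucin of progenitors, had 9.14 and 10.2 FPKM under MS-275, 4.54 and 3.57 under CXD101 and 2.81 and 2.56 under vehicle, a difference of 1.09 ± 0.14 (limma adjusted p = 0.0214). Spink2, a serine protease inhibitor, showed the same pattern at lower levels, with 6.71 and 5.2 against 2.45 and 1.47 (difference 1.25 ± 0.22, limma adjusted p = 0.0454).

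In the list of stem and progenitor genes, 3 of 10 tested members were called higher (Cd34, Ly6a and Spink2) and none lower, against 0.483% and 0.346% of all genes. The median difference over the list was 0.27 (all genes, -0.01). The other 7 members did not pass, including Kit, the stem cell factor receptor (-0.09, 95% interval -0.25 to 0.07), Gata2 (-0.47, interval -0.94 to 0.00) and Myb (0.34, interval 0.03 to 0.65). Of 11 T and NK cell markers only Cd3d and Nkg7 reached the FPKM limit, and neither was called. Ncr1, Klrb1c and Gzma were listed at 0 in all 4 libraries, and the summed level of the list was 43.7 and 45.6 FPKM under MS-275 and 30.1 and 36.2 under CXD101, mostly from Nkg7. Its part in the Ly6a and Thy1 differences was not tested. Because these are bulk libraries, more cells with a transcript and more transcript per cell cannot be told apart here or below.

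Serpinb2, the plasminogen activator inhibitor of macrophages and neutrophils, had 108 FPKM in both MS-275 libraries and 37.8 and 37.9 in the CXD101 libraries, against 6.73 and 8.05 under vehicle. Replicates of each inhibitor were almost equal, and the difference of 1.49 ± 0.09 (limma adjusted p = 0.00129) was called in all 15 alternative settings. Mmp13, a collagenase, had 6.13 and 6.97 FPKM under MS-275 and 2.36 and 1.76 under CXD101, the latter within reach of vehicle at 1.77 and 1.17 (difference 1.31 ± 0.17, limma adjusted p = 0.0219). Mmp8, the neutrophil collagenase, differed less on the log2 scale but at a far higher level. Its FPKM values were 2592 and 2555 under MS-275, 1602 and 1701 under CXD101, and 609 and 733 under vehicle (difference 0.64 ± 0.09, limma adjusted p = 0.0232). Of 14 tested proteins of secondary and tertiary granules, Mmp8 was the only one called, and the intervals of the other 13 lay within the 1.5-fold limit. Over all genes 0.829% were called and 80.5% had intervals within that limit. Both CXD101 libraries lay above both MS-275 libraries for 7 of the 14 and the reverse held for 2, against 25.1% and 23.4% of all genes.

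Several cytokines and chemokines separated the inhibitors, in both directions. Cxcl3, a neutrophil attractant, had 307 and 271 FPKM under MS-275, 159 and 152 under CXD101 and 36.9 and 40.1 under vehicle (difference 0.89 ± 0.08, limma adjusted p = 0.00635). Il1b, a proinflammatory cytokine, had 166 and 169 under MS-275 and 113 and 99.4 under CXD101. Its vehicle values of 133 and 150 lay between the inhibitors (difference 0.66 ± 0.08, limma adjusted p = 0.0214).

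The monocyte attractants went the other way. Ccl2 had 2.81 and 6.36 FPKM under MS-275, 14.3 and 16.6 under CXD101 and 92.7 and 81.9 under vehicle (difference -1.63 ± 0.26, limma adjusted p = 0.0331). Ccl7 had 0.438 and 0.415 under MS-275, 3.13 and 2.15 under CXD101 and 10.2 and 8.9 under vehicle (difference -1.34 ± 0.17, limma adjusted p = 0.0208). For both genes all 4 inhibitor libraries lay below both vehicle libraries, and the MS-275 libraries were the lowest. Of 20 tested inflammatory cytokines and chemokines, 3 were called higher (Cxcl3, Il1b and Ccl9), against 0.483% of all genes. Another 2 were called lower (Ccl2 and Ccl7), against 0.346% of all genes, and the list median was 0.27. Ccl7 met the FPKM limit only in the CXD101 libraries, so it could be called in that direction only. Tnf differed by 0.20 (interval 0.03 to 0.37). Cxcl2 differed by 0.44 (interval 0.29 to 0.59), which passed the adjusted p in limma (0.0234) but not the fold limit. Ccr2, the receptor for both attractants, had 30 and 29.4 FPKM under MS-275 and 27.5 and 28 under CXD101, a difference of 0.09 with an interval of -0.10 to 0.29.

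S100a4, a calcium-binding protein linked to cell motility, was the 1 called gene of 10 tested S100 genes (0.829% of all genes were called). It had 851 and 923 FPKM under MS-275, 499 and 447 under CXD101 and 603 and 574 under vehicle, so that the 2 inhibitors fell on opposite sides of vehicle (difference 0.91 ± 0.07, limma adjusted p = 0.00495). S100a8 and S100a9 were the most abundant of the family and differed by -0.10 (interval -0.53 to 0.33) and -0.04 (interval -0.34 to 0.27). S100a5 had a larger difference of 1.25 than S100a4, but with an interval of 0.05 to 2.46 it did not pass.

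Promoter sequence was then read for the genes that separated the inhibitors. RefSeq windows (GRCm38.p6) were found for 8466 of the tested genes, for 31 of the 53 higher genes and for 25 of the 38 lower genes. A TATA box, searched as TATAAA on the sense strand in the 60 bases before the start, was present in 5 of 31 higher genes (16.1%), 1 of 25 lower genes (4%) and 116 genes in all (1.37%). The AP-1 motif TGANTCA on either strand within 250 bases was present in 6 of 31 (19.4%), 1 of 25 (4%) and 4.39% of all genes. The GC box GGGCGG on either strand was present in 22.6%, 40% and 59.7%. Other motifs were searched on either strand within 250 bases and are given in the same order. The CCAAT box was present in 25.8%, 40% and 36.9%. A C/EBP motif was present in 9.68%, 4% and 7.44%, and an NF-kB motif in 3.23%, 0% and 1.16%. A motif match is not a binding site, these shares were not tested, and genes without a window are not covered. The windows that hold the TATA box are printed below because they are the called genes with this core promoter element, with TATAAA in capitals, each window 60 bases long and ending at the base before the start.
Serpinb2: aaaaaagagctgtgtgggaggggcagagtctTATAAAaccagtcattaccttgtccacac
Mmp13: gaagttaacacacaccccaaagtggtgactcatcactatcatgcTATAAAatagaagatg
Cpa3: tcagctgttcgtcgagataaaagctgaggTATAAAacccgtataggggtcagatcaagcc
S100a4: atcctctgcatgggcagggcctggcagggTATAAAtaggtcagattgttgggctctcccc
Cxcl3: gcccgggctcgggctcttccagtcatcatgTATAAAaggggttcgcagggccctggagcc
Il1b: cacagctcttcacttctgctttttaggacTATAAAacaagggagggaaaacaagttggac

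The windows lie, in GRCm38.p6 coordinates and with the distance of the first T of the motif from the start, as follows. The window of Serpinb2 spans chr1:107511363-107511422 (plus strand, 29 bases). That of Mmp13 spans chr9:7272454-7272513 (plus strand, 16 bases). That of Cpa3 spans chr3:20242182-20242241 (minus strand, 31 bases). That of S100a4 spans chr3:90603710-90603769 (plus strand, 31 bases). That of Cxcl3 spans chr5:90786041-90786100 (plus strand, 30 bases). That of Il1b spans chr2:129371140-129371199 (minus strand, 31 bases). Cpa3 is the 1 gene of this set that was lower under MS-275. The other 5 were higher, and the values of those 5 are given above and those of Cpa3 further on. The exons of Il1b, Cd34, Ndrg1 and Fn1 overlap those of genes on the opposite strand. Reads from these partners may be counted with them where strand was not used. The exons of Serpinb2 and S100a4 overlap another gene on the same strand, where strand does not separate the reads.

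**Figure D2:**
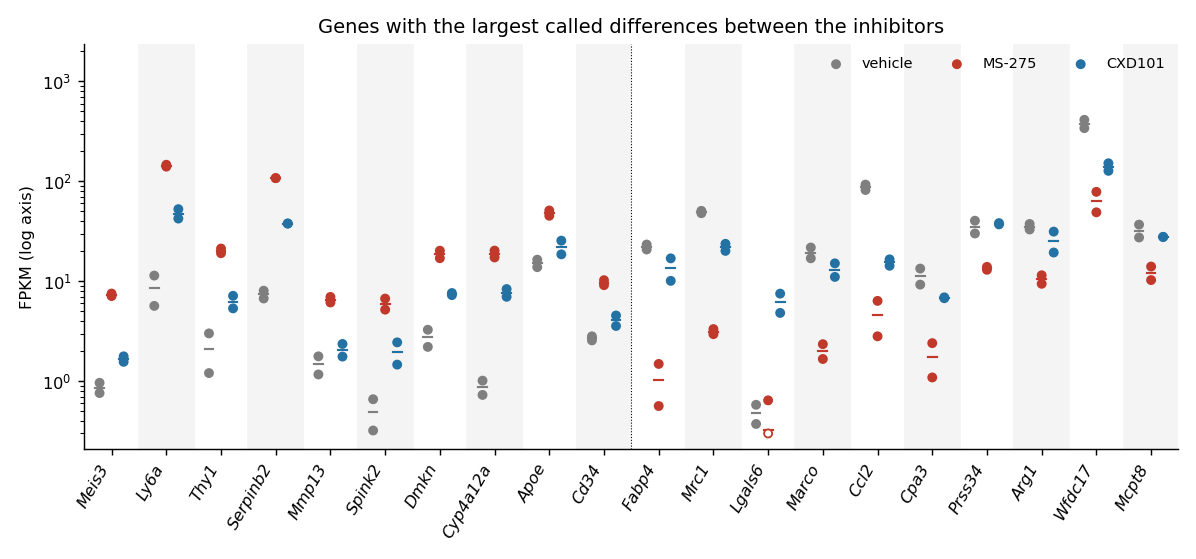
FPKM on a log axis in each of the 2 vehicle (grey), 2 MS-275 (red) and 2 CXD101 (blue) PMN-MDSC libraries for the 10 genes with the largest called difference in each direction, separated by the dotted line; short bars are group means and the open circle is a value of 0 drawn at the lower limit. In the left-hand 10 genes the CXD101 mean lies between those of vehicle and MS-275. In the right-hand 10 the MS-275 mean is the lowest, and only for Prss34 and Lgals6 is the CXD101 mean above that of vehicle.

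The remaining genes of this group were Dmkn, Cyp4a12a and Apoe. Dmkn, a secreted epithelial protein, had 20.2 and 17 FPKM under MS-275 and 7.62 and 7.27 under CXD101 (difference 1.21 ± 0.16, limma adjusted p = 0.0214). Cyp4a12a, a fatty acid hydroxylase, had 20.3 and 17.3 under MS-275, 8.36 and 6.99 under CXD101 and 1.01 and 0.729 under vehicle (difference 1.19 ± 0.14, limma adjusted p = 0.0208), but shares reads with its near-identical copy Cyp4a12b. Apoe, the lipid carrier, had 45.2 and 51.1 FPKM under MS-275, 18.6 and 25.5 under CXD101 and 13.8 and 16.4 under vehicle (difference 1.11 ± 0.15, limma adjusted p = 0.0232). Ndrg1, a hypoxia-response gene, was the 1 member called of 15 tested in that list (0.62 ± 0.07), and Olr1, a receptor for oxidized lipoprotein, was called at 0.63 ± 0.09 (limma adjusted p = 0.0208 and 0.024). Over all genes 0.829% were called. Across all 53 higher genes, the vehicle mean lay below both inhibitor means for 39, between them for 12 and above both for 2.

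The genes that were higher under CXD101 included markers of macrophages and of basophils and mast cells. Mrc1, the mannose receptor of macrophages, had 3.32 and 2.96 FPKM under MS-275, 20.1 and 23.7 under CXD101 and 50.6 and 48 under vehicle. CXD101 lay between the other groups with no overlap, and the mean was 6.98-fold higher under CXD101 than under MS-275 (difference -2.47 ± 0.11, limma adjusted p = 0.000187). Its call was also kept in all 15 alternative settings. Fabp4, a fatty acid binding protein of macrophages and fat cells, had 1.49 and 0.565 under MS-275, 10.1 and 16.9 under CXD101 and 23.3 and 20.8 under vehicle (difference -2.84 ± 0.27, limma adjusted p = 0.00692). The MS-275 values of Fabp4 rest on few reads. Marco, a scavenger receptor, had 2.35 and 1.67 under MS-275, 11.1 and 15.1 under CXD101 and 21.8 and 17 under vehicle (difference -2.22 ± 0.19, limma adjusted p = 0.00495).

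Msr1, Trem2 and C1qc were also called lower under MS-275, with smaller log2 differences. These genes do not make up 1 of the gene lists, and Olr1, the receptor for oxidized lipoprotein given above, was called higher. Of 14 tested genes of lipid uptake, storage and efflux, 1 was called higher and 2 lower. Over all genes those shares were 0.483% and 0.346%. Msr1, another scavenger receptor, had 13 and 15.6 FPKM under MS-275 and 24.4 and 25.7 under CXD101 (difference -0.77 ± 0.12, limma adjusted p = 0.028). Trem2, a lipid-sensing receptor, had 10.6 and 12 against 20.3 and 18.6 (difference -0.73 ± 0.11, limma adjusted p = 0.0279). C1qc, a chain of complement C1q, was close to the detection limit under MS-275, at 0.153 and 0.437 against 1.64 and 1.96 (difference -1.12 ± 0.16, limma adjusted p = 0.0234). All 3 had higher vehicle values, from 9.77 for C1qc to 57.4 for Msr1.

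Over the whole list of macrophage markers, 3 of 9 tested genes were called lower under MS-275 (C1qc, Mrc1 and Trem2) and 1 higher (Apoe). Over all genes those shares were 0.346% and 0.483%, and the list median was -0.65. C1qc met the FPKM limit only in the CXD101 libraries, so it could differ in that direction only. Its call and its place in these counts are descriptive. In 7 of the 9 both CXD101 libraries lay above both MS-275 libraries, and in 2 (Apoe and Adgre1) the reverse, against 25.1% and 23.4% of all genes. The uncalled members included C1qb (-1.37), Mertk (-0.59), Gpnmb (-0.45) and Adgre1, the F4/80 antigen, at 78.6 and 88 FPKM under MS-275 and 65.4 and 70.1 under CXD101 (difference 0.29, limma adjusted p = 0.138). The summed level of the list was 213 and 239 FPKM under MS-275, 254 and 240 under CXD101, and 829 and 693 under vehicle. No macrophage marker was at 0 in all 4 inhibitor libraries. Of 7 tested monocyte markers, Klf4, a transcription factor of monocyte development, was called lower (-0.92 ± 0.13, limma adjusted p = 0.0232) and Fn1, fibronectin, was called higher (0.63 ± 0.08, limma adjusted p = 0.0219). Their summed level was 162 and 180 FPKM under MS-275 and 170 and 164 under CXD101. The part of other cell types in these differences was not tested.

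The markers of mast cells and basophils separated the inhibitors most clearly as a list. Prss34, a basophil protease, had 13 and 13.9 FPKM under MS-275, 38.2 and 37.1 under CXD101 and 30.1 and 40.3 under vehicle (difference -1.42 ± 0.13, limma adjusted p = 0.00635). Mcpt8, the basophil granule protease, had 10.3 and 14 under MS-275, 27.7 and 27.8 under CXD101 and 27.4 and 36.9 under vehicle (difference -1.14 ± 0.17, limma adjusted p = 0.0247). Cpa3, a carboxypeptidase of the same granules, had 2.4 and 1.09 under MS-275, 6.9 and 6.77 under CXD101 and 9.26 and 13.4 under vehicle (difference -1.55 ± 0.24, limma adjusted p = 0.0305). MS-275 was the low group for all 3 genes, while the CXD101 range lay within the vehicle range for Prss34 and Mcpt8 and below it for Cpa3. The 3 genes were called among 4 tested members, against 0.346% of all genes called lower. The median of the list was -1.28, and Ms4a2, a chain of the IgE receptor, did not pass at -0.44 (limma adjusted p = 0.318). The summed level of all 7 markers was 28.5 and 30.9 FPKM under MS-275, 76.2 and 75.9 under CXD101, and 69.2 and 93.9 under vehicle. Fcer1a and Tpsb2 stayed under the FPKM limit, and Mcpt4 was listed at 0 in all libraries. The part of basophils or mast cells in the other differences was not tested. Eosinophil markers gave no call among 8 tested (median -0.12).

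**Figure D3:**
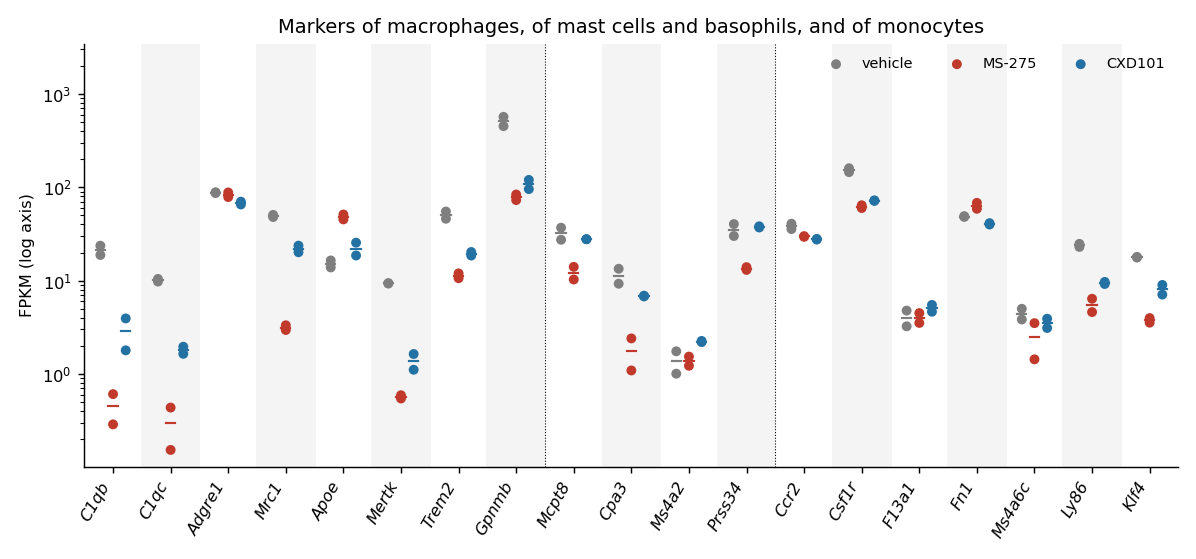
FPKM on a log axis in each PMN-MDSC library for tested markers of macrophages (left), of mast cells and basophils (middle) and of monocytes (right), with vehicle in grey, MS-275 in red, CXD101 in blue and group means as short bars. MS-275 libraries lie lowest for Mrc1, C1qc, Trem2, Mcpt8, Cpa3 and Prss34, and highest for Apoe and Fn1.

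Arg1, which encodes the arginase that depletes arginine around T cells, was the 1 member called of 14 tested immunosuppressive effectors (0.829% of all genes were called). It had 9.44 and 11.5 FPKM under MS-275, 19.4 and 31.4 under CXD101 and 33 and 37.4 under vehicle (difference -1.17 ± 0.20, limma adjusted p = 0.0445). The CXD101 libraries were spread widely, between the other groups. Of the rest of the list, 11 had intervals within the 1.5-fold limit, such as Cd274, which encodes PD-L1 (0.19, interval 0.01 to 0.37), Tgfb1 (0.12, interval -0.04 to 0.28) and Arg2 (0.14, interval -0.05 to 0.32). Wfdc17, a secreted protease inhibitor of activated myeloid cells, had 49 and 78.5 FPKM under MS-275, 152 and 127 under CXD101 and 412 and 340 under vehicle (difference -1.15 ± 0.20, limma adjusted p = 0.0469). Lgals6, a galectin with the close copy Lgals4, had 0 and 0.643 FPKM under MS-275, 4.82 and 7.52 under CXD101 and 0.581 and 0.373 under vehicle. Here CXD101 alone stood apart (difference -2.46 ± 0.28, limma adjusted p = 0.0172), and how reads were split between the copies is not stated. Lgals6 met the FPKM limit only in the CXD101 libraries, so it could differ in that direction only. Across all 38 genes called lower, the vehicle mean lay above both inhibitor means for 31, between them for 5 and below both for 2.

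Most functional groups held no called gene, and for some the interval put a limit on the difference. Over all genes 80.5% had intervals within the 1.5-fold limit. All tested members had intervals within the 1.5-fold limit for glycolysis (18 of 18), cytokine receptors (18 of 18), immediate early genes (15 of 15), NADPH oxidase subunits (6 of 6) and the corepressors, acetyltransferases and BET readers that act with HDACs (22 of 22). None was called among 31 interferon-stimulated genes, 38 cell cycle and DNA replication genes, 18 MHC class I genes or 10 MHC class II genes, where 0.829% of all genes were called, so that lists of this size would hold few calls or none at that share. The MHC class II list had a median of -0.27, with H2-Aa, the alpha chain of I-A, at 18.9 and 20.7 FPKM under MS-275 and 29.3 and 32 under CXD101 (difference -0.61 ± 0.14, limma adjusted p = 0.0899).

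Small shifts of whole lists were seen without any called member. Among 77 respiratory chain subunits, 40 had both CXD101 libraries above both MS-275 libraries and 9 the reverse, with a median of -0.11. Over all genes those orders were met by 25.1% and 23.4%. Among 82 cytosolic ribosomal protein genes, 36 had both MS-275 libraries above both CXD101 libraries and 6 the reverse, with a median of 0.07. Among 18 cytokine receptors, 11 had both MS-275 libraries above and 2 the reverse, with a median of 0.10. Under quantile normalization the respiratory chain median was -0.13 and the ribosomal median fell to 0.01, so the ribosomal shift nearly vanished with that scaling.

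**Figure D4:**
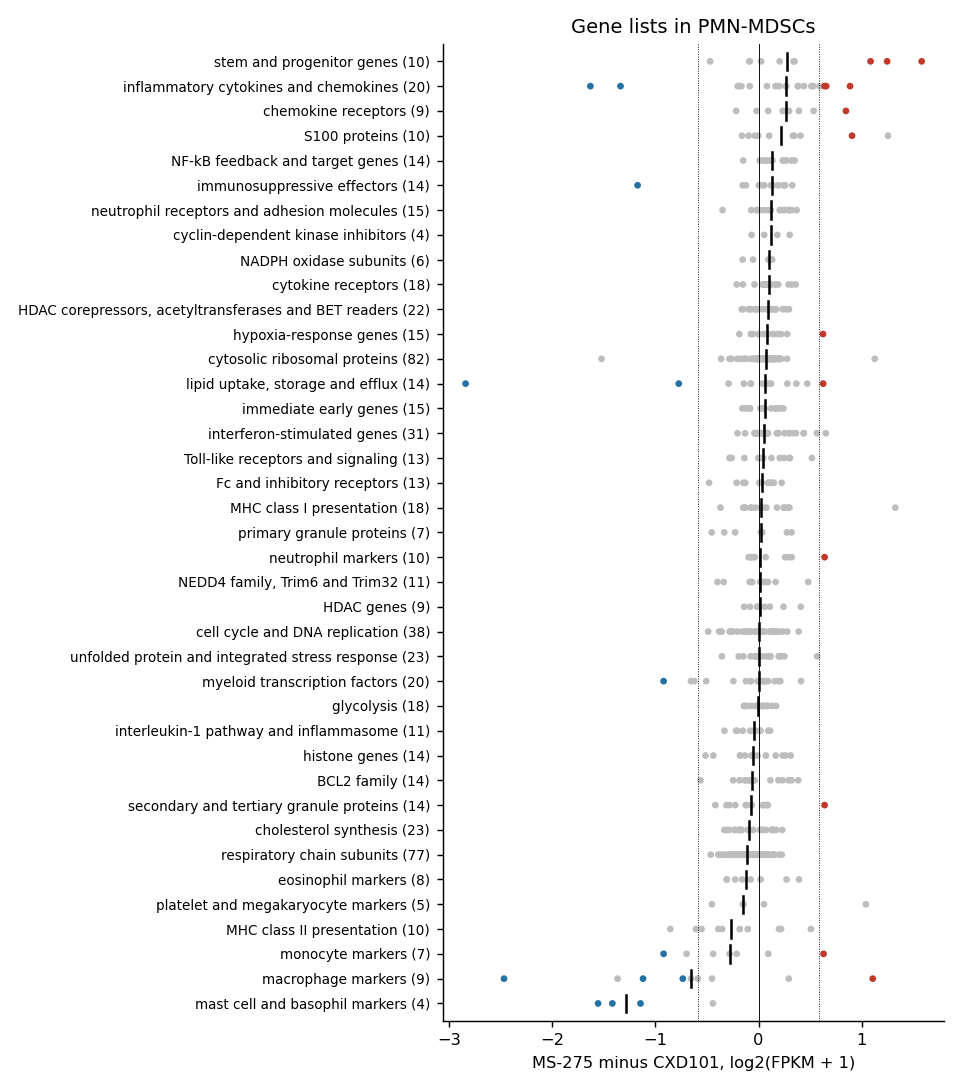
Each point is a tested gene at its MS-275 minus CXD101 difference in log2(FPKM + 1), arranged by gene list with the number tested in parentheses; red and blue points were called, grey points were not, black bars are list medians and dotted lines mark the 1.5-fold limits. Most list medians lie between -0.28 and 0.27, and those of macrophage markers and of mast cell and basophil markers lie at -0.65 and -1.28.

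The targets of the compounds were themselves transcribed at nearly equal levels. Hdac1 had 71 and 73.4 FPKM under MS-275 and 65 and 68.7 under CXD101 (difference 0.11, interval -0.04 to 0.26), Hdac2 differed by -0.01 (interval -0.22 to 0.19) and Hdac3 by -0.01 (interval -0.19 to 0.17). None of the 9 HDAC genes tested was called (0.829% of all genes), and 8 had intervals within the 1.5-fold limit (80.5% of all genes). Hdac4, a class IIa enzyme, was the exception at 22.1 and 18.9 FPKM against 14.7 and 15.6 (difference 0.41, interval 0.17 to 0.65). The other 2 genes of the family did not reach the FPKM limit.

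Of the genes used for sorting, Itgam and Ly6c2 were likewise similar, while the interval of Ly6c1 went past the 1.5-fold limit. Itgam, which encodes CD11b, had 862 and 861 FPKM under MS-275 and 862 and 881 under CXD101 (difference -0.02, interval -0.16 to 0.13). Ly6c2 had 1487 and 1677 against 1628 and 1418 (difference 0.06, interval -0.17 to 0.28). Ly6c1 was low at 9.79 and 7.98 against 6.78 and 6.29 (difference 0.39, interval -0.31 to 1.09), and as a close copy of Ly6c2 it can share reads with it. Ly6g was not found among the gene symbols analysed here. The summed level of 10 neutrophil markers was 259336 and 235979 FPKM under MS-275 and 244334 and 269977 under CXD101. Nedd4, a ubiquitin ligase, had 28.5 and 30.4 FPKM under MS-275, 20.8 and 20.7 under CXD101 and 5.5 and 5.53 under vehicle, a difference of 0.48 ± 0.08 that passed the adjusted p in limma (0.0472) but not the fold limit. Trim6 and Trim32, 2 further ubiquitin ligases, differed by 0.09 (interval -0.26 to 0.45) and 0.17 (interval -0.18 to 0.51).

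Among genes whose interval lay within the 1.5-fold limit, those farthest from vehicle showed a response common to both compounds. They were selected by that distance, so the values are descriptive. Ngp, a neutrophil granule protein, had 14556 and 14306 FPKM under MS-275 and 19038 and 19538 under CXD101, against 1494 and 1625 under vehicle. The 2 inhibitors still did not overlap for Ngp, and the difference of -0.42 ± 0.07 passed the adjusted p in limma (0.0445) without reaching the fold limit. Camp, the cathelicidin precursor, had 1821 and 1954 under MS-275, 2300 and 2380 under CXD101 and 295 and 278 under vehicle. Lipg, endothelial lipase, had 318 FPKM in both MS-275 libraries, 284 and 281 under CXD101 and 38.2 and 42.7 under vehicle.

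Ccl17, a chemokine for CCR4-bearing T cells, was low under both inhibitors, at 12.6 and 13.5 under MS-275 and 15.7 and 11.1 under CXD101 against 128 and 111 under vehicle. Its difference between inhibitors was -0.02 (interval -0.36 to 0.33). Mfsd2a, Ankrd22, Sema4f, Bcl2l14, H2-Oa and Platr7 made up the rest of the 10, with differences between inhibitors of 0.05 to 0.39.

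The same comparison could be made in M-MDSCs from the same treatments, in a model of all 12 libraries with 11532 genes. In M-MDSCs 470 genes were called (4.08%), 351 higher under MS-275 (3.04%) and 119 lower (1.03%). The PMN-MDSC calls used here come from the separate fit of PMN-MDSC libraries alone, with 53 higher and 38 lower of 10981 genes. With all 12 libraries in the model, the PMN-MDSC comparison gave 84 higher and 67 lower of those 10981 genes. Counts from the separate PMN-MDSC fit are thus not directly comparable with the M-MDSC counts. The difference between inhibitors itself differed between subsets for 50 genes (0.434%), with 22 higher (0.191%) and 28 lower (0.243%) in PMN-MDSCs than in M-MDSCs. Of the genes called in PMN-MDSCs, 30 were higher and 19 lower in both subsets, 22 higher and 19 lower genes were not called in M-MDSCs, and 1, Apoc2, was called in opposite directions. A call in 1 subset alone does not show that the subsets differ. Across genes, Pearson's r between the differences of the 2 subsets was 0.345, a description over genes that are not independent.

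For Mrc1, Serpinb2, Meis3 and Thy1 no difference between subsets was called, with interaction values of -0.29 ± 0.16, -0.29 ± 0.24, 0.18 ± 0.28 and -0.02 ± 0.36 (limma adjusted p = 0.462, 0.636, 0.825 and 0.984). In M-MDSCs, Mrc1 had 16.4 and 13.5 FPKM under MS-275 and 65 and 77.4 under CXD101. Serpinb2 had 16.7 and 25.3 against 6.19 and 4.46 there. Those misses do not show equal effects, and they bound the difference between subsets only as far as their errors allow.

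**Figure D5:**
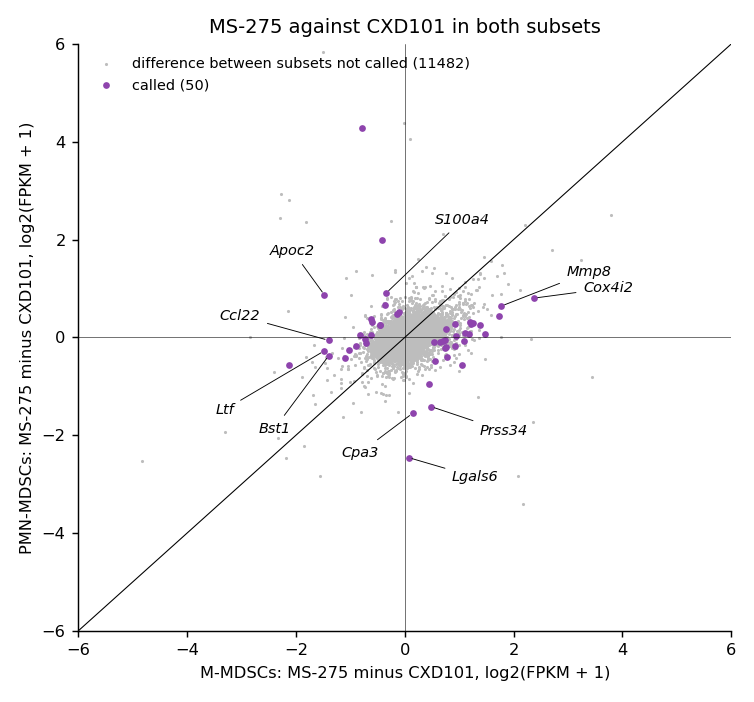
Each point is 1 of 11532 genes at its MS-275 minus CXD101 difference in log2(FPKM + 1) in M-MDSCs (x axis) and in PMN-MDSCs (y axis), and the line marks equal differences. The 50 genes in purple were called for a difference between subsets, with Prss34, Cpa3 and Lgals6 below the horizontal zero line and Apoc2 and S100a4 above it.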

How the data were processed

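RNA was sequenced from sorted tumor MDSCs of 2 subsets and 3 treatments, with 2 libraries in each of the 6 groups. Per the labels and the study's methods for M-MDSCs, stranded mRNA libraries were read as 101-base single ends. Each library came to GEO as a table the authors deposited, with an FPKM for every gene symbol. The submitters' processing notes name TopHat2 2.1.1, Bowtie2 2.2.8, SAMtools 0.1.18 and Cuffdiff 2.2.1 with mm10. The annotation and the strand setting of the counting are not given in the sources used here, which leaves overlapping and near-identical genes uncertain.

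From the deposited FPKM values, log2(FPKM + 1) was fitted with limma 3.58.1 (intensity trend, R 4.3.3) over the 6 PMN-MDSC libraries. In the comparison of the inhibitors the vehicle libraries entered only the estimate of the spread (3 residual degrees of freedom), and the comparisons with vehicle came from the same fit. FPKM carries no counts, so no count model was used, and adding 1 understates the change of low genes. Genes at FPKM 1 in at least 2 of the 4 compared libraries were tested. A gene under that level in both libraries of 1 inhibitor was tested only through the other. The direction of its difference was therefore fixed by the filter. Intervals are 95% limma intervals, and values after ± are standard errors. The subset difference was an interaction over all 12 libraries, treated as independent. Any sharing of animals between the M-MDSC and PMN-MDSC libraries was not modelled. The script was tested on simulated data. Depth was estimated from the FPKM of single reads in genes with 1 GENCODE M21 transcript.

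Named genes were the 10 largest called differences in each direction above a mean of 5 FPKM, up to 4 called members of each of 46 gene lists, the HDAC, sorting and ubiquitin ligase genes, the 10 genes farthest from vehicle among those within the fold limit, and the 5 largest interactions each way. Called genes with Gm, Mir, Snor or Rik symbols (12) were only counted, and a gene that the rule selected and a member of a marker list are not reported here. The comparison, the lists and the rule were chosen with earlier results of these data known. The lists hold 625 symbols, of which Hbb-bt and Ly6g were not found among the gene symbols analysed here. Replicate numbers gave little sign of pairing among the PMN-MDSC libraries (correlation of deviations -0.101, 0.0548 and 0.0942 between pairs of groups). With 2 libraries in each group, this check cannot show that they were unpaired. Alternatives changed the pseudocount, filter, scaling, spread, libraries in the model and the replicate block, and left out each library in turn.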

Additional observations from a re-analysis of the deposited data

Results flagged for a closer look

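The difference between MS-275 and CXD101 was not the same in PMN-MDSCs as in M-MDSCs for 12 of the named genes, by the interaction term of the 12-library model (limma, Benjamini-Hochberg adjusted p under 0.05 and fold above 1.5). For 6 of them the PMN-MDSC difference was the more positive. Apoc2, an activator of lipoprotein lipase, was higher under MS-275 in PMN-MDSCs (52.3 and 40.3 FPKM against 21.6 and 28.3) and lower in M-MDSCs (4.93 and 6.72 against 15.1 and 21), an interaction of 2.34 ± 0.26 (limma adjusted p = 0.00718). S100a4 likewise had 501 and 562 FPKM under MS-275 and 670 and 677 under CXD101 in M-MDSCs, opposite to PMN-MDSCs (interaction 1.25 ± 0.11, limma adjusted p = 0.00226). Both genes thus had the inhibitors in reversed order in the 2 subsets.

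Ccl22, Ltf, Bst1 and Ngp were lower under MS-275 in M-MDSCs and closer together in PMN-MDSCs. Ccl22, a chemokine for regulatory T cells, had 1.77 and 0.948 FPKM against 5.8 and 4.54 in M-MDSCs and 11.9 and 12.3 against 13.9 and 11.5 in PMN-MDSCs (interaction 1.34). Ltf, lactoferrin, had 29.1 and 31.8 against 82.1 and 92.2 in M-MDSCs, and 4077 and 4098 against 4945 and 4981 in PMN-MDSCs (interaction 1.21). Bst1, an ectoenzyme of the CD38 family, gave an interaction of 1.02 and Ngp one of 0.68. The M-MDSC values of the granule genes Ltf and Ngp are a small share of their PMN-MDSC values, and the part of neutrophils in the M-MDSC sort was not tested.

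The other 6 genes had the more negative difference in PMN-MDSCs. Prss34 and Cpa3, the basophil and mast cell proteases, had interactions of -1.90 ± 0.28 and -1.70 ± 0.31 (limma adjusted p = 0.0183 and 0.044), with 7.06 and 10.7 against 5.46 and 6.49 FPKM for Prss34 in M-MDSCs. Lgals6 gave -2.53, with no M-MDSC library of either inhibitor above 0.631 FPKM. Cox4i2, a subunit isoform of cytochrome oxidase, had 39.6 and 42.1 against 6.66 and 7.44 in M-MDSCs and 5.98 and 5.43 against 2 and 3.91 in PMN-MDSCs (interaction -1.57). Mmp8 gave -1.13, being higher under MS-275 in both subsets, and Rps19-ps3, a ribosomal protein pseudogene whose reads may belong to its parent gene, gave -1.63.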

How the results depend on the processing

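The number of called genes depended strongly on the spread estimate and on each inhibitor library. None of the 34 named genes called for the inhibitor difference changed direction in an alternative that fitted it. Direction was not followed for the named genes that were not called. Mrc1 and Serpinb2 kept their calls in all 15 alternatives. Against 53 higher and 38 lower genes, the counts were 5 and 1 with no filter on low values, 24 and 15 with no intensity trend, 84 and 67 with all 12 libraries in the model, and 24 and 17 at a fold change above 2. With the adjusted p alone, 77 were higher and 62 lower. Leaving out 1 library gave 3 to 67 higher genes and 4 to 44 lower genes. The low ends came from leaving out an inhibitor library: 3 and 6 without MS-275 replicate 1, 9 and 13 without replicate 2, 13 and 7 without CXD101 replicate 1, and 7 and 4 without replicate 2, each with fewer samples in the comparison. Median-of-ratios scaling (52 and 38), quantile normalization (50 and 35), a pseudocount of 0.1 (36 and 34) and a filter at 5 FPKM (40 and 30) moved the counts by less than 1.5 times. Of 34 named genes called for the inhibitor difference, 34 kept the call with median-of-ratios scaling and 31 with quantile normalization. With the pseudocount of 0.1, 26 kept it, with no intensity trend 14 and with no filter 3. C1qc, Ccl7 and Lgals6 were fitted in 12 of the 15 alternatives, because the filter left them out of the rest. Without either CXD101 library, 31 of the 34 could be fitted.

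For the difference between subsets (22 higher and 28 lower), a pseudocount of 0.1 gave 17 lower genes, no filter gave 13, and a fold change above 2 gave 10 higher and 16 lower. Leaving out 1 library gave 9 to 26 higher and 2 to 29 lower genes, with the lowest counts without MS-275 M-MDSC replicate 2. The causes of these changes were not tested.

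With the replicate number as a block, 39 genes were higher and 28 lower between the inhibitors, and 18 were higher and 10 lower between subsets. The libraries share only a number, so this block stands for no known pairing. The number of genes with an interval within the fold limit moved by less than 1.5 times in every alternative run. Depth limits values below about 0.5 FPKM, which rest on a few reads.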

Other observations

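Further called genes fell outside the rule for named genes and were picked after their values were seen. Thbs1, the matricellular protein thrombospondin-1, was the most abundant of the called genes, with 3863 and 4026 FPKM under MS-275, 2742 and 2516 under CXD101 and 1110 and 1089 under vehicle (difference 0.59 ± 0.07, limma with Benjamini-Hochberg adjusted p = 0.0178). Irg1, the itaconate-producing enzyme of activated myeloid cells, had 26.4 and 26.5 under MS-275, 14.2 and 12.4 under CXD101 and 22.7 and 20.4 under vehicle (difference 0.94 ± 0.10, limma adjusted p = 0.0116). Lta, lymphotoxin alpha, had 2.66 and 3.15 under MS-275, 0.494 and 0.543 under CXD101 and 0.857 and 0.881 under vehicle, so only MS-275 lay above vehicle. Lta met the FPKM limit only in the MS-275 libraries, so it could be called in that direction only. Itgb7, an integrin chain for gut homing, had 55.9 and 60.8 under MS-275, 34.8 and 26.4 under CXD101 and 19.4 and 16.7 under vehicle.

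In the other direction, Lrg1, a glycoprotein of neutrophil granules, had 124 and 144 FPKM under MS-275, 228 and 207 under CXD101 and 79.8 and 76.4 under vehicle (difference -0.70 ± 0.09, limma adjusted p = 0.0208). Cd38, an NAD-consuming ectoenzyme, had 11.3 and 11.5 under MS-275, 20.4 and 22.7 under CXD101 and 32.6 and 35.4 under vehicle. Fabp7, a second fatty acid binding protein beside Fabp4, had 0.233 and 0.443 under MS-275, 2.71 and 2.98 under CXD101 and 2.01 and 3.3 under vehicle. CXD101 and vehicle overlapped for Fabp7, and only MS-275 was low.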
